A study of Mus musculus with 10 samples.

Results

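The genes described here are 9 transcripts that fetal mouse liver makes in quantity or that belong to the imprinted gene network of growth control: H19, Igf2, Afp, Gpc3, Dlk1, Peg3, Cdkn1c, Grb10 and Meg3. They were taken by symbol from a table of 24972 genes, and all 9 were found in it. The set was selected on results of the comparison described here, the liver levels of these genes in mice bearing T cell-low or T cell-high tumours. The table holds 10 mouse liver libraries, 4 from mice carrying the pancreatic tumour line 6419c1 (T cell-low) and 6 from mice carrying the line 6555c3 (T cell-high). Both lines come from the KPC mouse model of pancreatic ductal adenocarcinoma, and all 10 are labelled WT. Each group rests on a single tumour line, so line and T cell class cannot be told apart. The labels used here give no strain, age, sex or time after implantation, and no statement that each library is a separate mouse, so p-values measure only the spread between libraries, which may be technical in part. The comparison asks how the liver differs between mice with tumours poor or rich in T cells.

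Imprinted genes are expressed from only the maternal or only the paternal chromosome, and many of them set the growth of the fetus. Igf2, a fetal growth factor made from the paternal allele, and H19, a long non-coding RNA made from the maternal allele, lie side by side and share enhancers in liver. After birth the mouse liver shuts down H19, Igf2 and Afp within weeks, and the repressors Zhx2 and Zbtb20 are known to take part, Zhx2 for Afp, H19 and Gpc3 and Zbtb20 for Afp. Reappearance of Afp and Gpc3 is a known feature of liver cancer.

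The members come from 5 chromosomes of mm10. H19 (ENSMUSG00000000031.16, chr7:142575529-142578143, minus strand) ends 72.6 kb from Igf2 (ENSMUSG00000048583.16, chr7:142650766-142666816, minus strand), and Cdkn1c (chr7:143458339-143461050, minus strand) lies 791.5 kb beyond Igf2. Dlk1 (chr12:109452823-109463336) and Meg3 (chr12:109541001-109571726), a reciprocally imprinted pair on the plus strand, are 77.7 kb apart. Peg3 (chr7:6703892-6730431), Grb10 (chr11:11930508-12038683) and the X-linked Gpc3 (chrX:52272426-52613950) are on the minus strand, and Afp (chr5:90490737-90508907) on the plus strand. Exons of H19, Igf2, Cdkn1c and Meg3 overlap those of other annotated genes, some of them antisense. Whether reads were counted by strand is not given in the sources used here. Of these overlapping genes, those in the table were listed at 0 in every library, except Igf2os, which reached 0.857.

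H19 carries the largest difference of the set, and its exonic sequence holds the microRNA miR-675. The RefSeq entries for its mature arms (GRCm38.p6, minus strand) are shown because they are the known processed products of this transcript, with the seed, bases 2 to 8, in capitals. The 5p arm lies at chr7:142577112-142577133 and the 3p arm at chr7:142577078-142577099, both inside an annotated H19 exon.
mmu-miR-675-5p: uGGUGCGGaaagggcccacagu
mmu-miR-675-3p: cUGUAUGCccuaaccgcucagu
The mature arms were not measured by these libraries, which read the 3′ ends of polyadenylated transcripts, and the Mir675 row of the table was listed at 0 in every library.

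RefSeq promoter entries were found for 7 of the 9 members. The 250 bases before the RefSeq start are shown for Afp and Gpc3, the members best known as markers of fetal liver and liver cancer, whose start regions differ in base composition. The Afp window is chr5:90490464-90490713 (plus strand) and the Gpc3 window chrX:52613975-52614224 (minus strand, printed in the direction of the gene). Capitals mark exact matches, on either strand, to the hepatocyte nuclear factor 1 core GTTAATNAT, the TATA box core TATAAA or the cAMP response element TGACGTCA.
Afp: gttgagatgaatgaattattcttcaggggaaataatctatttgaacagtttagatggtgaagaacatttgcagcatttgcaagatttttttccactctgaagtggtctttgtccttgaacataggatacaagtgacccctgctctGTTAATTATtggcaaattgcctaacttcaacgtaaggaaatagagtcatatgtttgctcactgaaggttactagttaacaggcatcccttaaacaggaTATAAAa
Gpc3: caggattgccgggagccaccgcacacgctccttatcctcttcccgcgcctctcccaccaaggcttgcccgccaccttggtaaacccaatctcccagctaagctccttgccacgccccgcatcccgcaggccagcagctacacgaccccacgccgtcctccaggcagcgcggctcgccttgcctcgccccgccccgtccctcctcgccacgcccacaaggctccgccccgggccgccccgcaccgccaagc
The Afp window held GTTAATNAT, which 0.74% of 32817 such windows held, and TATAAA, which 12.37% held. These motifs do not overlap each other there. It had 1 CG dinucleotide, against 25 in the Gpc3 window, where none of these motifs matched. The RefSeq start of Afp lies 23 bases before the GENCODE start. TGACGTCA, held by 1.55% of the windows, matched in a Meg3 window and in the Peg3 window. The same Meg3 window also held TATAAA. A match is a description of letters and shows no binding.

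Values below are scaled counts, gene counts that the authors brought to a common depth, and library totals ran from 7000659 to 8257373. T cell-high 1, 3, 5 and 6 stood apart from the other 6 libraries: 98 of 11110 tested genes had a gap of at least 1 on the log2 scale between these 4 and all others, and 0 of the 9 members were among them. T cell-low 1 resembled the T cell-high libraries (mean correlation over genes 0.936) more than its own group (0.861). Results that move are therefore also given without T cell-low 1 and with the set of 4 as a covariate, a fit in which the difference is that to T cell-high 2 and 4 alone. Hepatocyte markers summed to between 378000 and 548000 in T cell-low livers and between 250000 and 519000 in T cell-high livers. The embryonic globins Hbb-bh1, Hbb-y and Hba-x were listed at 0 in all 10.

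The members were chosen with this comparison of groups known, so their differences are described and not tested. Only genes averaging 10 or more scaled counts entered the fit across all genes. Of the 9 members 6 did so, the lowest being Meg3 with a mean of 29.1, and Dlk1, Afp and Igf2 had means of 2.28, 2.26 and 0.751. H19 passed that filter through the T cell-low libraries, its T cell-high mean being under 10. At an adjusted p below 0.05 (limma, Benjamini-Hochberg) the fit called 1 of these 6, H19, where it called 12.8% of all tested genes, 5.39% as higher in T cell-low livers and 7.39% as lower, and H19 was also the 1 member whose groups did not overlap, against 7.39% of all tested genes. Without T cell-low 1 it called 32.7% of tested genes. Nothing is read from these counts. Over all 9 members the median log2 difference was 0.12, beside 0.003 over the tested genes, with 5 differences above 0 and 4 below. Each difference subtracts the T cell-high mean of log2(scaled count + 1) from the T cell-low mean, and its standard error (SE) is from limma.

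H19 was the member with high values in one group. It had 21.8, 145, 238 and 143 scaled counts in T cell-low 1 to 4 and 6.74, 11.3, 0, 0, 3.37 and 0 in T cell-high 1 to 6. Every T cell-low library lay above every T cell-high library, T cell-low 1 being the one nearest to them. The means were 137 ± 88.6 (SD, n = 4) and 3.57 ± 4.65 (SD, n = 6), and the log2 difference was 5.24 (SE 0.88). Over all 11110 tested genes, 7 including H19 had a difference at least that high. The size depends on the pseudocount, since 3 T cell-high libraries were listed at 0: it was 5.79 with a pseudocount of 0.5 and 3.84 with 5. Without T cell-low 1 it was 5.97 (SE 0.86), and against T cell-high 2 and 4 alone 4.88 (SE 1.21). In bulk tissue, more cells with a transcript and more transcript per cell cannot be told apart.

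Igf2, the neighbour of H19, stayed near 0. It was listed at 0 in 3 T cell-low libraries, with 2.4 in T cell-low 4, and at 0 in 4 T cell-high libraries, with 4.05 in T cell-high 1 and 1.06 in T cell-high 5. Adult mouse liver is known to lack Igf2, and these values are too near 0 to describe a direction.

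Afp, the fetal counterpart of albumin, was near 0 throughout. T cell-low 2, 3 and 4 were listed at 0 and T cell-low 1 had 5.16, while T cell-high 1 to 6 had 3.51, 1.97, 1.17, 0.964, 1.87 and 7.96. The libraries with the highest H19 were thus those listed at 0 for Afp. The ranges overlap through T cell-low 1, and a listed 0 may be a failed estimate.

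Gpc3, which encodes glypican-3, a heparan sulfate proteoglycan of the cell surface that binds growth factors, was higher in 3 of the 4 T cell-low libraries than in any T cell-high library. The values were 29.7, 67.6, 60.6 and 69 in T cell-low 1 to 4 and 20.8, 35.2, 7.31, 44.2, 14.6 and 13.9 in T cell-high 1 to 6. T cell-low 1 lay within the T cell-high range. The means were 56.7 ± 18.4 (SD, n = 4) and 22.7 ± 14.2 (SD, n = 6), and the log2 difference was 1.44 (SE 0.47), or 1.72 (SE 0.49) without T cell-low 1. Among T cell-high libraries, 2 and 4 had the highest Gpc3, and against these alone the difference was 0.44 (SE 0.48), less than its error. The same pair had the highest summed proliferation markers, 460 and 527, while the remaining T cell-high livers had 44.9 to 201 and the T cell-low livers 61.5 to 179. This pair also had the lowest summed hepatocyte markers of all 10 libraries, 250000 and 329000. The part of dividing cells and of the mix of cell types in the Gpc3 values was not tested.

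**Figure D1:**
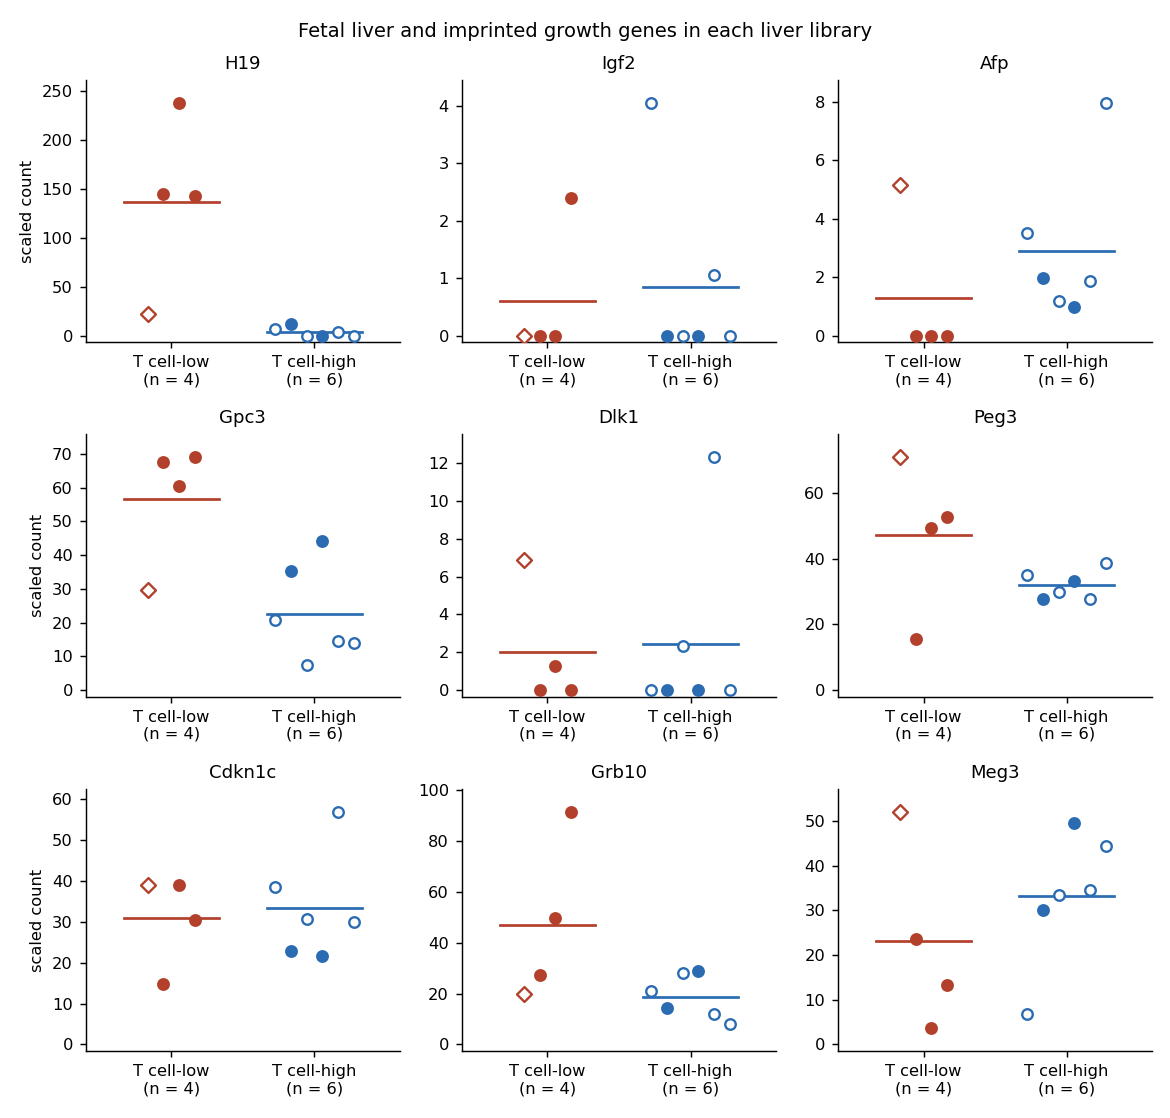
Scaled count (linear axis) of each of the 9 genes in the 4 T cell-low (red) and 6 T cell-high (blue) libraries, with the group mean as a line; the open diamond is T cell-low 1, and open circles are T cell-high 1, 3, 5 and 6. H19 is the gene whose groups do not overlap, from 21.8 to 238 against 0 to 11.3, and Igf2, Afp and Dlk1 reach at most 12.3 in all libraries.

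Grb10 encodes an adaptor that binds the insulin and IGF1 receptors and dampens their signal, and it is imprinted with maternal expression in most tissues. It had 20, 27.2, 49.8 and 91.4 scaled counts in T cell-low 1 to 4, and 21.2, 14.3, 28.2, 28.7, 12.1 and 8.03 in T cell-high 1 to 6. T cell-low 3 and 4 were above all T cell-high libraries, and T cell-low 1 and 2 within their range. The log2 difference was 1.18 (SE 0.48), from 0.78 without T cell-low 4 to 1.5 without T cell-low 1.

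Peg3, a paternally expressed zinc finger gene, varied mostly among T cell-low livers. Its values were 71, 15.7, 49.5 and 52.9 in T cell-low 1 to 4, so that T cell-low 2 was below and the other 3 above the whole T cell-high range of 27.7 to 38.9 (median 31.6). The log2 difference was 0.37 (SE 0.37), about its error. The SD was 23.1 in T cell-low livers and 4.45 in T cell-high livers.

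Cdkn1c encodes p57Kip2, an inhibitor of cyclin-dependent kinases expressed from the maternal allele. It had 39.1, 14.9, 39.1 and 30.4 scaled counts in T cell-low 1 to 4 and 21.6 to 56.9 in T cell-high livers. The groups overlapped over most of their range, and the log2 difference of -0.13 (SE 0.37) was smaller than its error.

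Meg3, a maternally expressed long non-coding RNA, had 52, 23.6, 3.59 and 13.3 scaled counts in T cell-low 1 to 4 and 6.84, 30.1, 33.5, 49.5, 34.6 and 44.3 in T cell-high 1 to 6. T cell-low 1 was the highest of all 10, and T cell-low 3, which had the highest H19, was the lowest. The log2 difference was -0.80 (SE 0.66), -1.34 (SE 0.64) when T cell-low 1 was left out and -0.16 when T cell-low 3 was. Its neighbour Dlk1, a transmembrane relative of the Notch ligands that marks hepatoblasts, was listed at 0 in 6 livers (T cell-low 2 and 4, T cell-high 1, 2, 4 and 6) and was highest in T cell-high 5 (12.3) and T cell-low 1 (6.86).

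**Figure D2:**
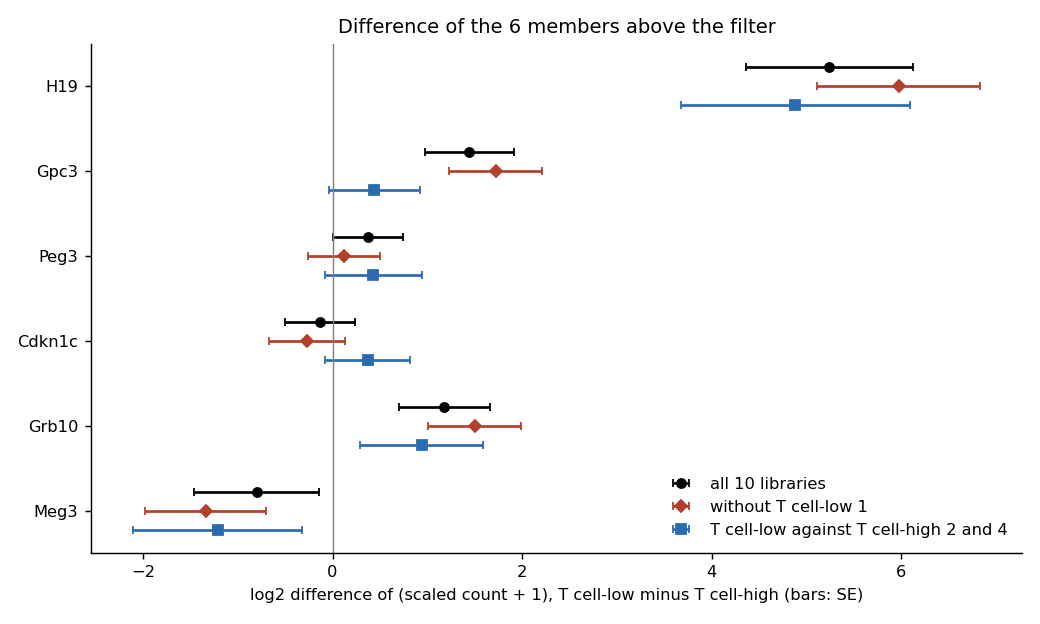
Log2 difference (T cell-low minus T cell-high of the mean log2(scaled count + 1)) with its SE for the 6 members above the filter, over all 10 libraries (black), without T cell-low 1 (red) and against T cell-high 2 and 4 alone (blue). H19 stays between 4.88 and 5.97, while Gpc3 goes from 1.72 to 0.44.

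Across libraries the members did not move as a unit. With group means removed from log2(scaled count + 1), the 15 pairs of the 6 members above the filter had Pearson correlations from -0.69 (H19 and Meg3) to 0.61 (Peg3 and Cdkn1c), with a median of -0.07 (n = 10 libraries, which share each library's depth and scaling). H19 and Gpc3 had 0.49 over the 10 libraries and 0.34 within the 6 T cell-high libraries. H19 and Meg3 had -0.60 within the T cell-high libraries, whereas Peg3 and Cdkn1c had -0.19 there, so that their pooled value rests on the T cell-low livers. H19 was listed at 0 in 3 of these 6 T cell-high libraries and reached at most 11.3. Its correlations within that group therefore rest on values near 0. All these correlations are descriptions with no test.

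**Figure D3:**
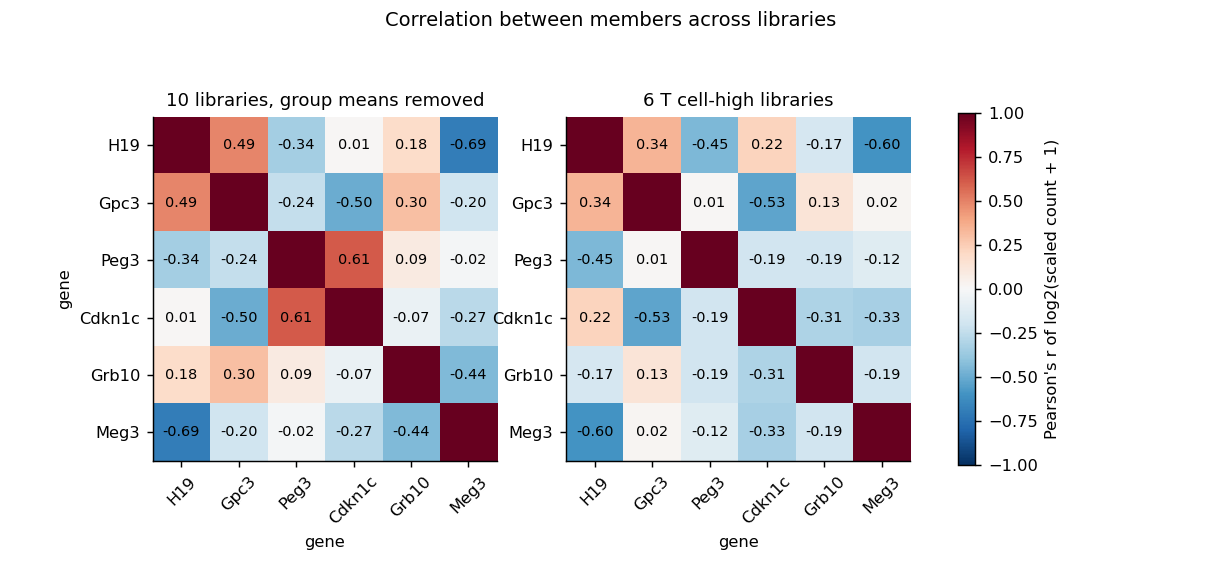
Pearson's r of log2(scaled count + 1) between the 6 members above the filter, over 10 libraries after removing group means (left) and within the 6 T cell-high libraries (right). H19 and Meg3 are negative in both panels (-0.69 and -0.60), and Peg3 and Cdkn1c change from 0.61 to -0.19. H19 was listed at 0 in 3 of the 6 T cell-high libraries.

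For each of the 6, the 3 tested genes with the most similar group-centred pattern were listed out of 11109. Closest to H19 was Ercc6, a DNA repair gene (r = 0.98), and then Fam91a1 (0.92) and the non-coding Snhg20 (0.90). Gpc3 was closest to Vim, the intermediate filament gene vimentin (0.96, and 1.0 within the T cell-high libraries), Galc (0.95) and Zfp13 (0.94). Peg3 was closest to Polh, Prex1 and Gpd2 (0.97 each), with values between 0.62 and 0.79 within the T cell-high libraries. Cdkn1c was closest to Arf4 (0.98), BC002163 and As3mt (0.97 each). Grb10 was closest to Zfp157 and Rgs3 (0.95 each) and Slc25a4 (0.92), and Meg3 to 2610027K06Rik and Lin37 (0.92 each) and Fcgrt (0.91). The highest of so many correlations over 10 libraries is high by selection.

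Other genes of the same pathways were listed from general knowledge and tested in the fit over all genes. Of 139 genes 87 were tested, 5 rose and 5 fell in T cell-low livers (limma, adjusted p below 0.05), which is 11.5% against the 12.8% of all tested genes. Their median log2 difference was 0.24, beside 0.003 over all tested genes. With the set of 4 libraries as a covariate all 10 kept their direction, but 0 of them and 0 of all tested genes passed by limma (1788 genes at an unadjusted p below 0.05). Without T cell-low 1, all 10 passed and 31 genes of the lists did. Without T cell-low 4 it was 2, without T cell-low 2 it was 3, without T cell-high 6 it was 4, and without T cell-high 1, 3 or 5 it was 5. Foxa3, Slc22a18, Stat5a and Zfp568 lost the call without any 1 of T cell-low 2, 3 and 4 and T cell-high 1, 3, 5 and 6 (adjusted p = 0.0584 to 0.154 by limma), and Zfp568 also without T cell-high 4. Igfals lost it without T cell-low 2 or 4 or any T cell-high library but 2 (0.0529 to 0.113), Onecut1 without T cell-low 2 or 4 (0.0615 and 0.0653), and Kcnq1ot1 without T cell-low 4 (0.0537). Cyp3a16 lost it without T cell-low 2 or 4 (0.0683 and 0.0655) and dropped below the filter without T cell-high 2, 4 or 6. Lpl and Ddc kept it without each single library.

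Imprinted genes of the members' own domains had 1 rise and 2 falls among 7 tested of 20. Kcnq1ot1, the paternally expressed non-coding RNA that silences the Cdkn1c domain, had 478, 348, 623 and 544 scaled counts in T cell-low livers and 175 to 288 in T cell-high livers, with no overlap (log2 difference 1.14, SE 0.22, adjusted p = 0.0143 by limma). Slc22a18, a maternally expressed transporter gene of that domain, had 42.9 to 116 against 52.1 to 670 (-2.03, SE 0.58, adjusted p = 0.0403 by limma). T cell-high 2 and 4 had 52.1 and 173, lower than the other 4, and against this pair alone the difference was -0.59 (SE 0.50). Ddc, the aromatic amino acid decarboxylase next to Grb10, had 747, 261, 312 and 231 against 856 to 1300, with no overlap (-1.63, SE 0.29, adjusted p = 0.0118 by limma). Beside these, the differences of Cdkn1c and Grb10 were -0.13 and 1.18.

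The list of imprinted genes elsewhere had 0 of 25 tested members past the threshold, with a median of 0.07 and a range from -2.27 to 1.53. The ends of that range are Gatm, with a T cell-low mean of 7.54, and Asb4, with a T cell-high mean of 7.13. Each passed the filter of 10 only through the group where it was high, so nothing is read from the range. Plagl1, a zinc finger factor known to regulate the imprinted gene network, had 8.62, 6.97, 35.3 and 7.45 scaled counts in T cell-low livers and 4.74 to 20.3 in T cell-high livers (0.07, SE 0.55, adjusted p = 0.937 by limma). Igf2r, the maternally expressed receptor that clears IGF2, had 86.6 ± 29.3 (SD) against 125 ± 23.6 (-0.57, SE 0.26, adjusted p = 0.142 by limma).

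In the IGF and insulin axis 2 of 21 tested genes fell and 0 rose. Igf1, the growth factor that adult liver secretes, averaged 7940 ± 969 (SD, 4 livers) and 7370 ± 801 (SD, 6 livers) scaled counts (0.11, SE 0.17, adjusted p = 0.678 by limma). Igfals, whose product holds IGF1 in the circulating ternary complex, had 893, 440, 750 and 352 against 926 to 1530, with no overlap (-1.04, SE 0.27, adjusted p = 0.032 by limma). Stat5a, a transcription factor downstream of growth hormone, had 0 to 21.5 against 26.8 to 64.8 (-2.57, SE 0.70, adjusted p = 0.0365 by limma). Stat5b of the same list had higher counts, with means of 278 and 204. It did not pass and its difference had the other sign (0.38, SE 0.23, adjusted p = 0.245 by limma). The receptors did not pass: Igf1r had a log2 difference of 0.79 (SE 0.30, adjusted p = 0.091 by limma, 0.0218 without T cell-low 1) and Insr one of 0.24 (SE 0.20, adjusted p = 0.391).

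Fetal liver and oncofetal genes had 1 rise and 1 fall among 10 tested of 25. Lpl, lipoprotein lipase, which hepatocytes make before and shortly after birth, had 578, 506, 1550 and 421 against 170 to 303 scaled counts, with no overlap (1.62, SE 0.33, adjusted p = 0.0169 by limma). Cyp3a16, a cytochrome P450 of fetal and young mouse liver, went the other way, listed at 0 in 3 T cell-low libraries and at 1.4 in T cell-low 3, against 4.38 to 45.5 (-3.39, SE 0.76, adjusted p = 0.0206 by limma). It has close paralogues in the Cyp3a cluster, so reads of copies may be mixed. Its mean of 10.0 over all libraries passed the filter only through the T cell-high group, so it had to differ to be tested, and its fall is no independent support for the count. It was not tested without T cell-high 2, 4 or 6, where its mean was below the filter. The RNA-binding oncofetal gene Lin28b and the stem cell factor gene Sall4 were listed at 0 in all 10.

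Known regulators of these genes had 3 rises and 0 falls among 25 tested of 28. Onecut1, a hepatocyte factor (HNF6), had 158, 245, 237 and 345 against 54.8 to 124 scaled counts, with no overlap (1.41, SE 0.29, adjusted p = 0.0169 by limma). Foxa3, a liver forkhead factor, had 810, 4890, 2400 and 2970 against 601 to 1390 (1.42, SE 0.42, adjusted p = 0.0449 by limma), and 0.82 (SE 0.52) against T cell-high 2 and 4 alone. Zfp568, a KRAB zinc finger gene known to silence a placental transcript of Igf2, had 74.8, 181, 156 and 452 against 60.5 to 82.4 (1.31, SE 0.38, adjusted p = 0.0429 by limma). The fetal gene repressors did not pass. Zhx2 had 38.7 ± 7.08 (SD, 4 libraries) against 43.2 ± 4.17 (SD, 6 libraries), with a log2 difference of -0.17 (SE 0.24, adjusted p = 0.64 by limma). Zbtb20 had 417 ± 87.1 against 308 ± 63.5 (0.44, SE 0.21, adjusted p = 0.152 by limma), and Trim28, a corepressor that protects imprints, 181 ± 29.1 against 203 ± 44.4 (-0.15, SE 0.22, adjusted p = 0.65 by limma).

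**Figure D4:**
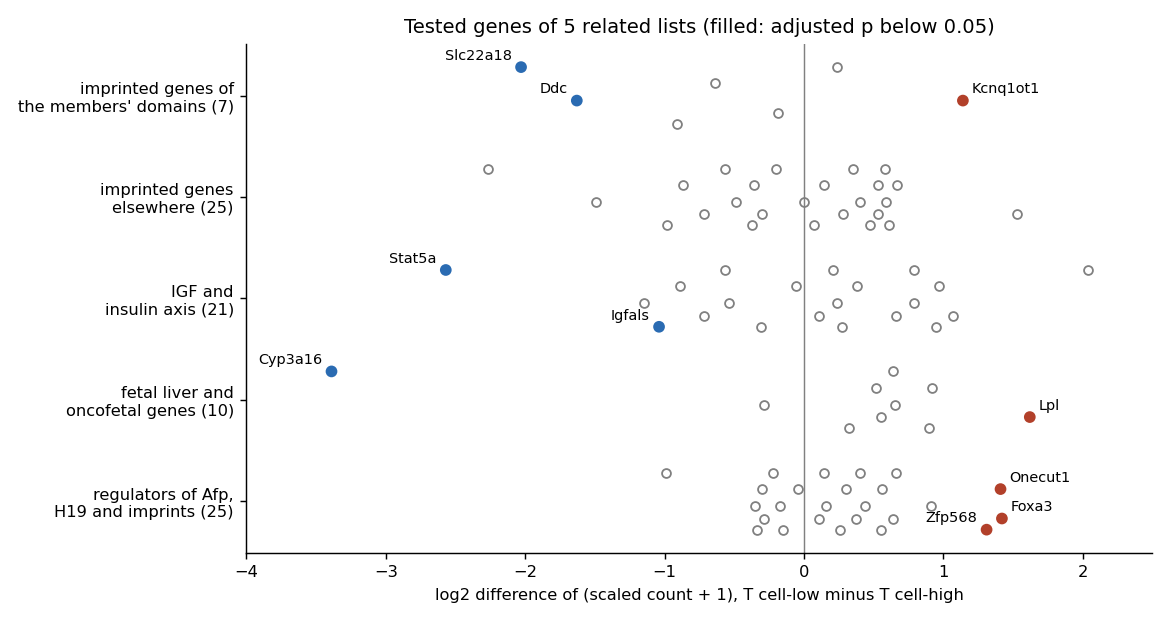
Log2 difference (T cell-low minus T cell-high) of every tested gene in 5 lists, with the number tested in brackets; filled points passed an adjusted p of 0.05 (limma), red higher and blue lower in T cell-low, and vertical position within a list carries no meaning. 5 genes rose and 5 fell, and the list of imprinted genes elsewhere has 0 filled points.

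Among hepatocyte markers 1 of 8 tested rose, Apoa1, and 0 fell. Apoa1 had means of 129000 and 59600 scaled counts, with no overlap (log2 difference 1.08, SE 0.24, adjusted p = 0.0208 by limma). Some markers of other cell types also differed between the groups. The 6 mesothelial markers summed to 74.8, 162, 209 and 226 scaled counts in T cell-low 1 to 4 and to 20.5 to 79.2 in T cell-high livers, and the 8 markers of pancreatic tumour epithelium to 35.3, 149, 155 and 175 against 13 to 41.9. Msln, mesothelin, is in both lists, made up the larger part of both sums in T cell-low 2, 3 and 4, and rose (28.4, 129, 112 and 164 against 8.87 to 34.8). It was the only called marker in either list, and Krt17 and Agr2 of the tumour list were listed at 0 in all 10. T cell-low 1 was the lowest T cell-low library for Msln as for H19. Stellate cell and fibroblast markers summed to 714 to 1090 against 664 to 747, with 1 of 10 higher (Pdgfra). The others did not pass and went both ways. Col1a1 and Col1a2 had differences of 0.86 (SE 0.41) and 0.84 (SE 0.28). Des, Col3a1 and Reln had -1.14 (SE 0.45), -0.95 (SE 0.45) and -0.67 (SE 0.25), and Lrat, Pdgfrb, Lum and Acta2 -0.25 to -0.06. In the endothelial list 2 of 7 rose, Stab2 and Lyve1, while the sums overlapped (2210 to 2630 against 1910 to 2790). Lyve1 had 158, 844, 716 and 781 scaled counts in T cell-low 1 to 4 against 128 to 196 (log2 difference 1.63, SE 0.40, adjusted p = 0.0262 by limma), with T cell-low 1 again the lowest of its group and here inside the T cell-high range. Clec4g and Kdr of the same list had differences of -0.74 (SE 0.28) and -0.63 (SE 0.22) and did not pass. Erythroid markers, of cells that fetal liver produces, summed to between 43200 and 98300 in T cell-low livers and between 19700 and 51900 in T cell-high livers, with 2 of 7 tested higher (Hba-a2 and Slc4a1). Slc4a1 passed the filter only through the T cell-low libraries, its T cell-high mean being 9.89, so its rise is no independent support for the count. Hba-a2 made up most of the erythroid sum, with means of 61300 and 26900. Hbb-bs of the same list had 118 to 215 in T cell-low livers, 99.7 and 16.2 in T cell-high 2 and 4 and 3460 to 9360 in T cell-high 1, 3, 5 and 6 (log2 difference -2.80, SE 1.53, adjusted p = 0.208 by limma). The summed markers of exocrine and endocrine pancreas were 133 to 218 against 261 to 486, a sum made up mostly of Cela1, the 1 of 2 tested that fell (126 against 293). The other tested gene, Cela2a, had means of 40.4 and 10.4 (log2 difference 1.69, SE 0.64, adjusted p = 0.0897 by limma). Proliferation markers had 0 of 5 tested past the threshold. Cholangiocyte and Kupffer cell markers had 0 tested members past the threshold. The part of these cells in the H19 values was not tested.

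**Figure D5:**
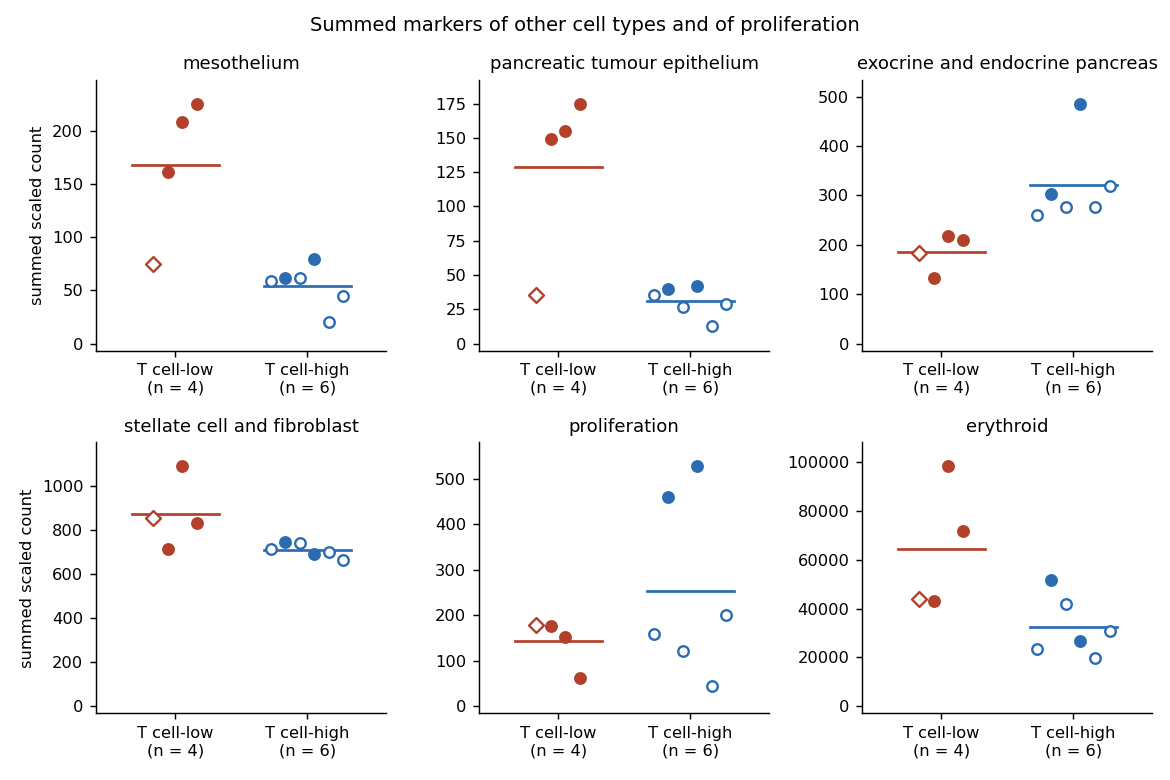
Summed scaled counts (linear axis) of 6 marker lists in each library, with symbols as in the plot of the members. T cell-low 2, 3 and 4 are above all T cell-high libraries for the mesothelial and tumour epithelial lists, and T cell-high 2 and 4 are highest for proliferation (460 and 527).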

How the data were processed

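RNA from 10 livers was made into QuantSeq FWD 3′ end libraries, per the labels' protocols. The submitters' processing notes name STAR, DESeq2 and mm10, with no tool versions. Which counter and annotation were used is not given in the sources used here. In the deposited table the authors give 1 signal per gene and library, a count scaled to a common depth (scaled count). From 5.8% to 10.6% of low values (below 50 steps) were whole multiples of a library's commonest step (tolerance 0.01 step), so whole reads were not recovered, depth is unknown and no counting interval was computed. An exact 0 may be a failed estimate.

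Table columns were matched to samples by their descriptions, and groups taken from titles. Genes with a mean of 10 or more (11110) were compared as log2(scaled count + 1) with limma 3.58.1 (trend, group as the only term, 13.1 degrees of freedom) in R 4.3.3, two-sided, Benjamini-Hochberg adjusted, called below 0.05. The procedure was tested on simulated data. Alternatives were other scalings, pseudocounts and filters, the robust option, the replicate number as a block, the set of 4 libraries as a covariate or left out, and each library left out. The members and lists were chosen with earlier results of these data known. Named genes were all members, up to 4 called genes per list and direction, 8 genes named whatever their result (Igf1, Igf1r, Igf2r, Insr, Zhx2, Zbtb20, Plagl1, Trim28), and the 3 genes most like each member above the filter. Others, overlapping genes and markers included, were chosen after their values were seen. GENCODE vM21 gave gene positions (24490 symbols matched) and RefSeq the sequences (GRCm38.p6). Figures used Python 3.11.15 and matplotlib 3.10.9.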

Additional observations from a re-analysis of the deposited data

Results flagged for a closer look

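Of 54 combinations of a gene and a group examined, 10 had a highest library whose gap to the next was large against the group's range (Dixon's 95% value, which chance passes in about 1 in 20). Among the members these were Igf2 in T cell-low 4 (2.4, the others at 0) and T cell-high 1 (4.05, the others at most 1.06), Afp in T cell-low 1 (5.16, the others at 0) and T cell-high 6 (7.96, the others 0.964 to 3.51), and Dlk1 in T cell-high 5 (12.3, the others at most 2.35). All 5 are near 0 in the other libraries. Among the other genes T cell-low 3 was far above its group for Lpl (1550 against 421 to 578), Plagl1 (35.3 against 6.97 to 8.62) and Cyp3a16 (1.4 against 0). T cell-low 1 was so for Ddc (747 against 231 to 312) and T cell-high 6 for Cyp3a16 (45.5 against 4.38 to 19.4). For Igf2, Afp and Cyp3a16 in T cell-low, all other libraries of the group were listed at 0. Any value above 0 passes there, so the rate of 1 in 20 does not apply to them.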

How the results depend on the processing

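The number of called genes and of called list genes depended on the libraries. Against 1420 and 10 in the fit over all libraries, limma called 193 and 2 with the replicate number as a block, and 0 and 0 both with T cell-high 1, 3, 5 and 6 as a covariate and without them (1788 and 1027 genes at an unadjusted p below 0.05, against 3830). Leaving out each library in turn gave 109 (T cell-low 2) to 3633 (T cell-low 1) called genes and 2 (T cell-low 4) to 31 (T cell-low 1) list genes. It was 156 called genes when T cell-low 4 was left out, 508 for T cell-low 3, 2280 for T cell-high 2, and 380 to 446 for T cell-high 1, 3, 5 or 6. The cause was not tested. Rescaling, pseudocounts, filters and the robust option kept both counts within 1.5 times. With group means removed, same-numbered libraries correlated at 0.104, 0.211, -0.099 and -0.151. Only T cell-low 2 was closest to the T cell-high library of its own number. These few correlations cannot settle whether the numbers pair the samples. The block gave a member median of 0.39, and of the 10 list genes Ddc and Onecut1 passed with it. The member median ran from -0.06 to 0.47 without single libraries, against 0.12. Of 169 member values under alternatives, 167 moved by less than the spread between libraries and 2 by more, Gpc3 at 0.44 with the covariate and without the 4 libraries. Sign changes are not counted in these numbers. Igf2 (-0.12), Dlk1 (0.12) and Cdkn1c (-0.13) changed sign under some alternatives. With the covariate Igf2 had 0.44 and Cdkn1c 0.37, and without T cell-low 1 Dlk1 had -0.52. Of 351 values of 18 named list genes, 267 kept direction and side of the threshold, 72 lost the call, 1 gained it (Igf1r without T cell-low 1) and 11 changed sign. Those 11 belong to genes that did not pass: Igf1 (-0.01 with equal totals, -0.04 with the covariate and without the 4 libraries), Trim28 (0.07 in both of these) and Plagl1 (-0.55 in both, -0.04 with equal totals, -0.21 with the block, -0.13 without T cell-high 6, and -0.44 to 0.29 over single libraries left out, the lowest without T cell-low 3). Depth is unknown, so values near 0 (Igf2, Afp, Dlk1) carry no stated precision. Cyp3a16 fell below the filter, and so has no value, with median ratio scaling, at a mean of 50 or more, without the 4 libraries and without T cell-high 2, 4 or 6. The members, Stat5a, Plagl1 and Zhx2 were below a mean of 50 too, H19 excepted.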

Other observations

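The following genes of the lists were picked after their values were seen and did not enter or pass the fit. Peg10, a paternally expressed gene derived from a retrotransposon, had 7.89, 8.83, 2.69 and 5.77 scaled counts in the T cell-low livers against 0 to 1.17 elsewhere, below the filter. Igfbp1, the insulin-regulated IGF binding protein gene of liver, had 59600 and 88300 in T cell-low 2 and 4, against 4730 and 8750 in T cell-low 1 and 3 and 1570 to 10200 in the T cell-high livers (log2 difference 2.04, SE 0.75, adjusted p = 0.0834 by limma). Asb4, an imprinted gene of the Peg10 cluster, had 10.7 to 39.3 against 4.03 to 13.2 (1.53, SE 0.49, adjusted p = 0.0547 by limma). It passed the filter only through the T cell-low libraries, its T cell-high mean being 7.13. Other list genes near the threshold were lower in T cell-low livers. Cd81 had -0.91, Ghr -1.15, Foxa2 -0.99 and Commd1 -0.87 (adjusted p = 0.0501, 0.0505, 0.0543 and 0.0571 by limma). Uhrf1, below the filter, was listed at 0 in every T cell-low library against 1.73 to 7.33.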
